A study of Ovis aries with 18 samples.

Results

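The miR-30 family was followed in small RNA libraries of the sheep uterus. Its members were the rows of the deposited tables whose miRNA name, or whose listed miRNA of the same seed, was miR-30a to miR-30f. This rule found 7 of 495 rows in the table for extracellular vesicles and 7 of 761 rows in the table for endometrium, and they were the same 7 rows. Of these, 5 carry a sheep name (miR-30a-5p, miR-30a-3p, miR-30b, miR-30c and miR-30d), and 2 carry only the identifier of a predicted locus, 1_144 and 9_34106, listed with the seed of bovine miR-30d. The seed is the short stretch near the 5′ end of a miRNA that selects its targets, and rows that share it need not be the same miRNA. The 6 rows other than miR-30a-3p are named or listed for the 5p arm of the hairpin, or without an arm, and are called the 5p rows. No row carries the name of miR-30e or miR-30f.

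All libraries came from ovariectomized ewes given 50 mg of progesterone (P4) daily for 14 days. From day 8 until day 14 the P4+RU486 ewes were also given a daily 50 mg of RU486, and the P4 ewes were not. RU486 (mifepristone) antagonizes the progesterone receptor. Vesicles were isolated from a flush of the uterine lumen (4 libraries per treatment), and endometrium was dissected from the uterus (5 libraries per treatment). The labels give 5 ewes per treatment, and the vesicle columns do not tell which of them gave the 4 vesicle libraries. A vesicle library holds the RNA of whatever cells shed vesicles into the lumen, and the labels do not name those cells. In bulk samples of this kind, fewer contributing cells and less RNA per cell cannot be told apart.

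In mammals the miR-30 genes lie in small clusters, and the 5p strands share a seed, so the members can repress overlapping sets of messenger RNAs. The family is known for holding back the transcription factor SNAI1 and with it the loss of epithelial character. In human endometrium, miR-30d has been described as a miRNA that epithelial cells release into the uterine fluid. In the sheep assembly ARS-UI_Ramb_v3.0, used here for names and neighbours only, MIR30B and MIR30D lie next to each other with no listed gene between them. MIR30C lies inside NFYC, a gene for a subunit of a CCAAT-binding factor, and MIR30A lies inside an uncharacterized gene, LOC114116445.

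The vesicle values are reads scaled to a common, adjusted library size, called normalized CPM. The libraries are called R01 to R04 and P01 to P04, as their columns are headed. From the initial letters, R was taken as P4+RU486 and P as P4. The libraries held between 97202 and 1062646 reads in listed rows, and P01, P04 and R04 held the fewest. On the first principal component, with 26.4% of the variance, P01 stood apart most. The miR-30 rows were well covered, with 69 to 24260 reads per row and library. Among lists of miRNAs typical of a cell type, epithelial rows held 0.992% to 1.56% of the reads in P4+RU486 libraries and 0.932% to 2.59% in P4 libraries, and 3 of 5 markers had a row. Leukocyte rows (3 of 5 markers) held 0.211% to 0.490% in P4+RU486 libraries and 0.214% to 1.93% in P4 libraries. Smooth muscle and stromal rows (4 of 5 markers) held 1.05% to 1.47% in P4+RU486 libraries and 1.08% to 1.84% in P4 libraries, and rows of ciliated epithelium (2 of 4) held 1.14% to 1.86% under both treatments. The erythroid row (1 of 3 markers) held 0.175% to 0.553% in P4+RU486 libraries and 0.0262% to 0.791% in P4 libraries. Liver or plasma rows (2 of 4 markers) summed to 0.00988% to 0.0131% in P4+RU486 libraries and 0.0143% to 0.0576% in P4 libraries, without overlap. Shares this small rest on few reads, and their counting error was not assessed. The highest P4+RU486 share lay close to the lowest P4 share. Of the 229 rows that averaged 10 normalized CPM or more, taken singly, 10.0% had treatments that did not overlap. Within the liver or plasma list, miR-194 had an estimate above 0, P4+RU486 minus P4 (log2 difference 0.14, limma adjusted p = 0.913). No row matched the striated muscle list (0 of 4 markers), which names miR-133a and miR-133b with their letters. A row named miR-133, without a letter, was present but not counted there. Its log2 difference, P4+RU486 minus P4, was -1.35 (limma adjusted p = 0.334). The part of any of these cells in the miR-30 values was not tested.

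As a family, miR-30 was an abundant component of vesicle RNA under both treatments. In P4+RU486 libraries 4.39% ± 0.774 (SD, n = 4) of the reads fell on the 5p rows, and in P4 libraries 5.23% ± 0.284 (SD, n = 4). By library, the share was 4.78%, 5.26%, 3.96% and 3.55% in R01 to R04, and 5.01%, 5.45%, 4.97% and 5.50% in P01 to P04. R01, R03 and R04 lay below every P4 library, while R02 lay among the P4 libraries, so the treatments overlapped through R02. Counting error was small beside this spread, with a 95% Wilson interval of 3.44% to 3.66% for the lowest library, R04, and of 5.36% to 5.64% for the highest, P04. The share of the 3p row, miR-30a-3p, was 0.233% ± 0.000942 (SD, n = 4) in P4+RU486 libraries and 0.229% ± 0.0272 (SD, n = 4) in P4 libraries.

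None of the 7 rows passed the test for a difference between treatments in vesicles (limma, adjusted over the 229 rows that averaged 10 normalized CPM or more, threshold 0.05). Of the 229 rows, 0.437% passed as lower in P4+RU486 and 0% as higher. edgeR and DESeq2 on whole reads called 0 of the 7 as well. The limma adjusted p of the members ranged from 0.285 to 0.913. Estimates were above 0 for 3 members and below 0 for 4, and above 0 for 51.5% of the 229 rows. The median log2 difference was -0.11 for the members, against a median of 0.04 over all rows tested. Only 1 member, miR-30d, had an unadjusted limma p under 0.05, in either direction, a mark that 14.4% of the 229 rows passed. No member had treatments that did not overlap, where 10.0% of the 229 rows did.

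**Figure D1:**
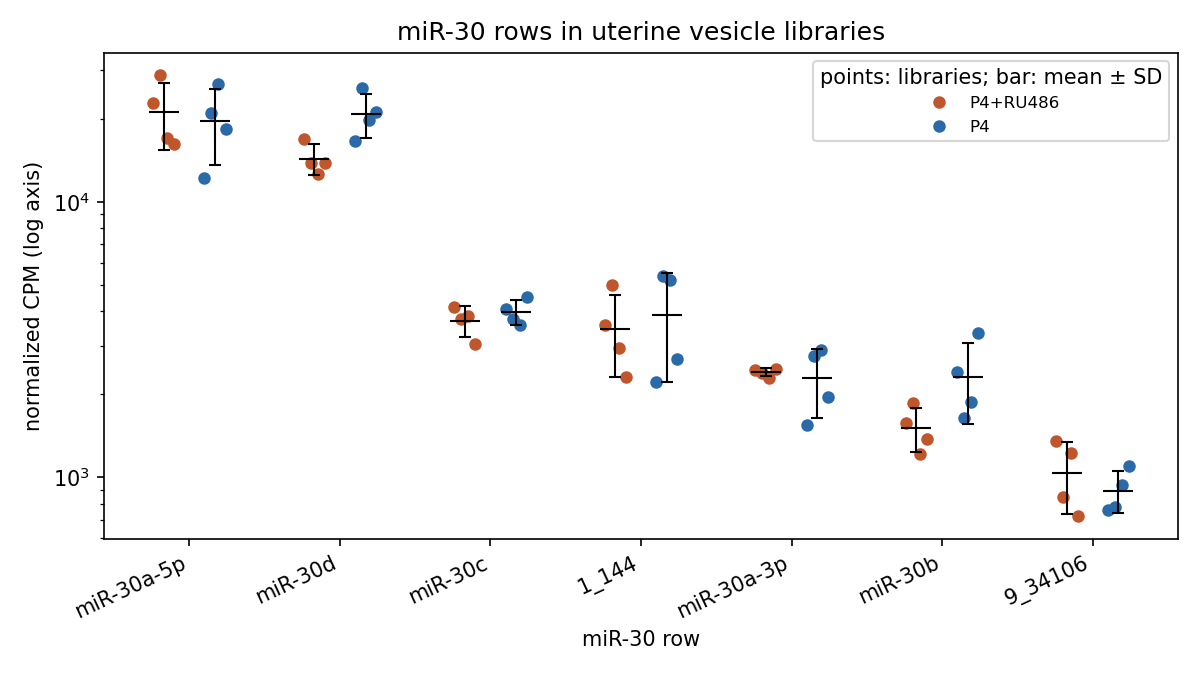
Normalized CPM (log axis) of each miR-30 row in the vesicle libraries, P4+RU486 left of P4 within each row. Points are libraries and bars are the mean ± SD of 4 libraries. miR-30a-5p and miR-30d lie far above the other rows, and the treatments overlap in every row.

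miR-30a-5p, the mature strand of the miR-30a gene and a repressor of the autophagy gene BECN1 in human cells, had the highest mean of the family over all 8 libraries and ranked 9 among the 229 rows. In P4 alone the mean of miR-30d was higher. The values of miR-30a-5p were 22755, 28833, 17022 and 16256 normalized CPM in R01 to R04, and 12202, 21037, 26659 and 18441 in P01 to P04. The highest library was of P4+RU486 and the lowest of P4, and the others were mixed. The means were 21216 ± 5848 (SD, n = 4) in P4+RU486 and 19585 ± 5999 (SD, n = 4) in P4. The log2 difference was 0.13 (SE 0.28, 95% interval -0.47 to 0.73, limma adjusted p = 0.897), an interval that runs from 0.722 to 1.66 times the P4 level. Its sign turned to -0.08 without P01 and to -0.03 without R02.

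miR-30d ranked 12 and had the smallest p of the family. Its values were 16937, 13848, 12642 and 13792 normalized CPM in R01 to R04, and 16562, 25800, 19756 and 21132 in P01 to P04. Of the P4+RU486 libraries, 3 lay below every P4 library, and R01 lay just above P01, the lowest of P4. It averaged 14305 ± 1840 (SD, n = 4) in P4+RU486 and 20812 ± 3836 (SD, n = 4) in P4. The log2 difference of -0.53 (SE 0.21, 95% interval -0.98 to -0.08) had an unadjusted limma p of 0.0249 and a limma adjusted p of 0.285. The estimate stayed below 0 in all 20 alternatives, between -0.65 and -0.42, and none of them brought its adjusted p under the threshold.

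miR-30b, whose gene neighbours that of miR-30d, was less abundant and had a like estimate. Its values were 1579, 1860, 1215 and 1378 normalized CPM in R01 to R04, and 2412, 1644, 1874 and 3330 in P01 to P04. Here too 3 of the P4+RU486 libraries lay below every P4 library, and R02 lay between P02 and P03. It averaged 1508 ± 278 (SD, n = 4) in P4+RU486 and 2315 ± 749 (SD, n = 4) in P4, and the log2 difference was -0.58 (SE 0.28, 95% interval -1.20 to 0.03, limma adjusted p = 0.334). The highest P4 values were those of P04 and P01, the libraries with the fewest reads. Without P01, P04 and R04 the log2 difference was -0.20 (limma adjusted p = 0.735).

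miR-30c, encoded within NFYC, varied least among the 5p rows. Its values were 4162, 3738, 3849 and 3038 normalized CPM in R01 to R04, and 4078, 3750, 3576 and 4513 in P01 to P04. The highest library was 1.49 times the lowest over all 8. The means were 3697 ± 474 (SD, n = 4) in P4+RU486 and 3979 ± 412 (SD, n = 4) in P4, with a log2 difference of -0.11 (SE 0.22, 95% interval -0.58 to 0.36, limma adjusted p = 0.879). With 1 library left out it ranged from -0.17 (without R01) to -0.02 (without R04).

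The predicted rows with the miR-30d seed did not follow each other. 1_144 was at 3567, 4972, 2955 and 2307 normalized CPM in R01 to R04, and at 2223, 5371, 5199 and 2681 in P01 to P04. Its P4 libraries fell into a high pair, P02 and P03, and a low pair, P01 and P04, and its highest library was 2.42 times its lowest. The means of 3450 ± 1137 (SD, n = 4) in P4+RU486 and 3869 ± 1648 (SD, n = 4) in P4 differed by -0.12 on the log2 scale (SE 0.35, limma adjusted p = 0.913). 9_34106, the least abundant member, was at 1350, 845, 1229 and 720 normalized CPM in R01 to R04, and at 762, 783, 935 and 1097 in P01 to P04. R01 and R03 lay above every P4 library and R04 below every P4 library. The means were 1036 ± 301 (SD, n = 4) in P4+RU486 and 894 ± 156 (SD, n = 4) in P4, 0.18 apart on the log2 scale (SE 0.29, limma adjusted p = 0.859). With 69 reads in R04, counting alone gives that value an SD of 12.04%.

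miR-30a-3p, the opposite strand of the miR-30a hairpin, was the only 3p row. It was at 2445, 2398, 2290 and 2474 normalized CPM in R01 to R04, and at 1548, 2761, 2886 and 1956 in P01 to P04. All P4+RU486 libraries lay inside the range of the P4 libraries, with a coefficient of variation of 3.36%, against 28.1% in P4. That of P4+RU486 is smaller than the counting SD of each of those libraries, which was 3.61% to 6.50%. The means were 2402 ± 80.8 (SD, n = 4) in P4+RU486 and 2288 ± 643 (SD, n = 4) in P4, 0.12 apart on the log2 scale (SE 0.26, limma adjusted p = 0.913).

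**Figure D2:**
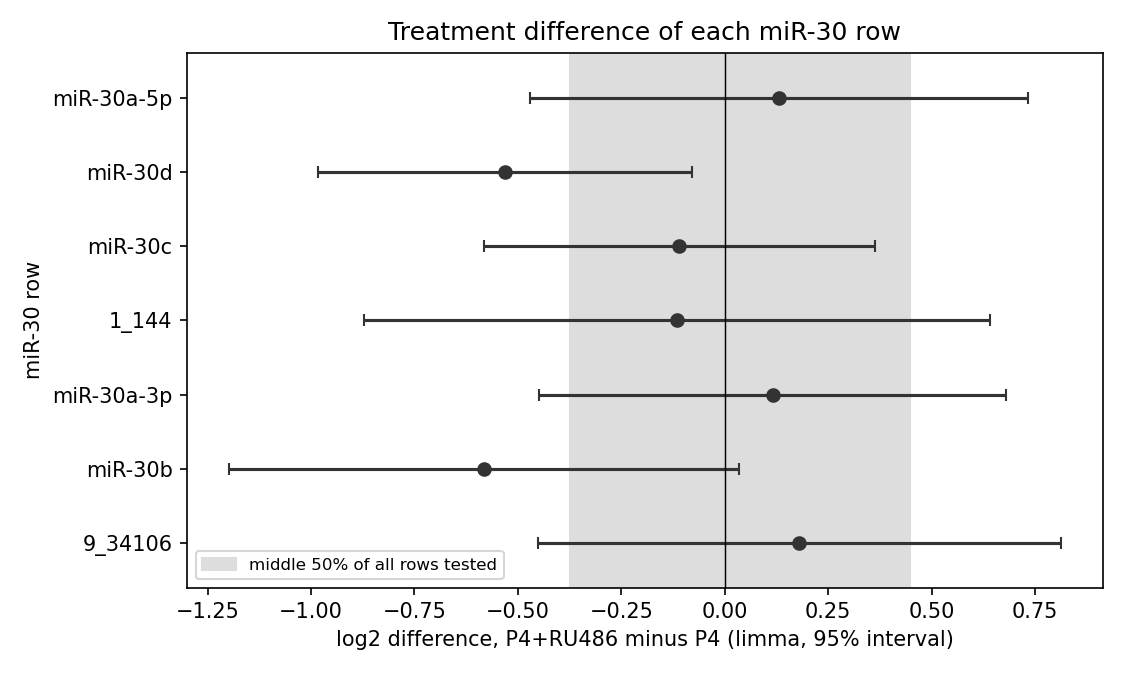
Log2 difference (P4+RU486 minus P4) of each miR-30 row in vesicles, with the 95% interval of the limma fit. The grey band holds the middle 50% of the 229 rows tested, from -0.37 to 0.45. miR-30d and miR-30b lie left of the band and the other rows inside it.

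The SE of each member lay below that of the median row. These ran from 0.21 to 0.35, against a median of 0.51 over the 229 rows. The median coefficient of variation between libraries was 18.4% in P4+RU486 and 28.1% in P4 for the members, and 21.5% in P4+RU486 and 32.3% in P4 over the 124 rows that averaged 100 or more. Beside other abundant families, 3 of 7 miR-30 rows had estimates above 0, as did 51.5% of the 229 rows. The count was 8 of 9 for let-7 rows (median log2 difference 0.37) and 0 of 2 for miR-26 rows (median -0.34). No row of any of these families passed.

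The make-up of the family was led by miR-30a-5p and miR-30d in every library. miR-30a-5p made up 46.4% ± 4.67 (SD, n = 4) of the 5p reads of the family in P4+RU486 libraries and 37.5% ± 5.98 (SD, n = 4) in P4 libraries. miR-30d made up 32.1% ± 4.72 (SD, n = 4) in P4+RU486 libraries and 40.7% ± 4.60 (SD, n = 4) in P4 libraries. miR-30a-5p was the larger of the pair in all 4 P4+RU486 libraries, and miR-30d was the larger in 3 of 4 P4 libraries, P03 being the exception. Next came miR-30c at 8.29% ± 1.23 (SD, n = 4) in P4+RU486 and 8.02% ± 2.13 (SD, n = 4) in P4, and 1_144 at 7.51% ± 1.27 (SD, n = 4) in P4+RU486 and 7.30% ± 2.07 (SD, n = 4) in P4. miR-30b held 3.34% ± 0.266 (SD, n = 4) in P4+RU486 and 4.71% ± 1.96 (SD, n = 4) in P4, and 9_34106 held 2.33% ± 0.722 (SD, n = 4) in P4+RU486 and 1.77% ± 0.364 (SD, n = 4) in P4.

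**Figure D3:**
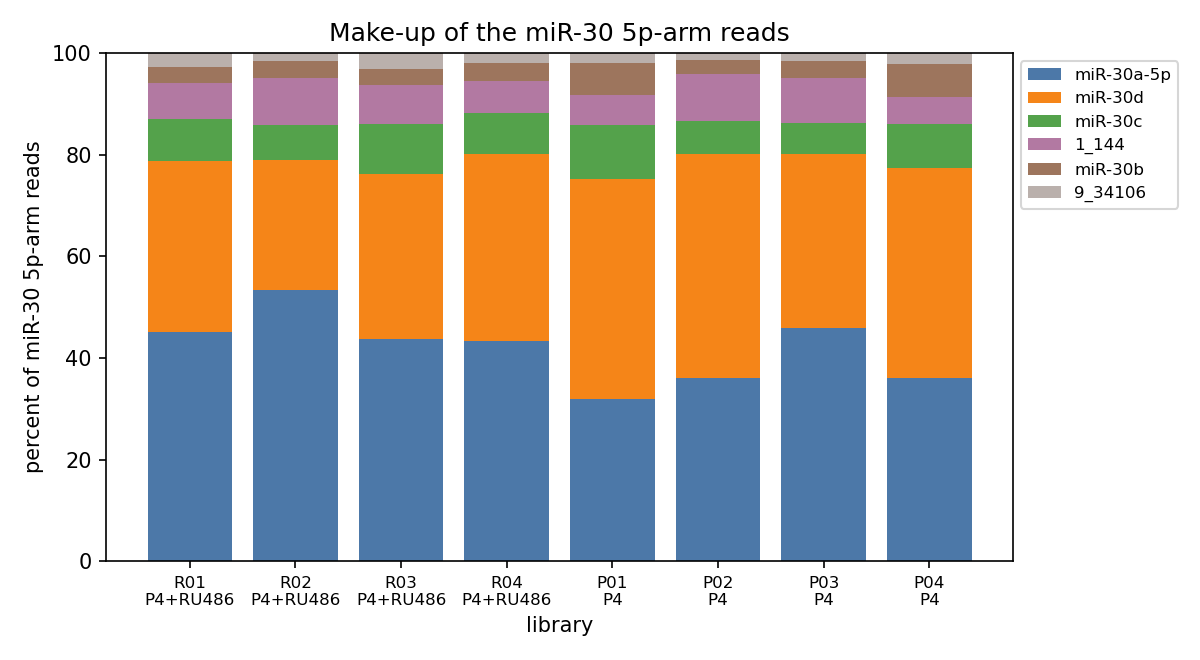
Percent of the miR-30 5p reads held by each row in each vesicle library, P4+RU486 libraries left of P4 libraries. miR-30a-5p is the largest part in all 4 P4+RU486 libraries and in P03, and miR-30d is the largest in P01, P02 and P04.

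Ratios of members within a library do not depend on how libraries are scaled, and 5 of them were tested. The ratio of miR-30d to miR-30a-5p was 0.744, 0.480, 0.743 and 0.848 in R01 to R04, and 1.36, 1.23, 0.741 and 1.15 in P01 to P04. It was below 1 in all P4+RU486 libraries and above 1 in all P4 libraries but P03. The mean log2 ratio differed by -0.66, P4+RU486 minus P4 (SD 0.36 in P4+RU486 and 0.38 in P4, n = 4 each, 2-sided exact permutation p = 0.114, adjusted p = 0.286 over 5 ratios). With 4 against 4 libraries the smallest possible p is 0.0286.

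The ratio of miR-30c to miR-30b was 2.64, 2.01, 3.17 and 2.20 in R01 to R04, and 1.69, 2.28, 1.91 and 1.36 in P01 to P04, with a log2 difference of 0.47 (exact permutation p = 0.0857, adjusted p = 0.286). R01 and R03 lay above every P4 library, and R02 and R04 lay between P03 and P02. The neighbours miR-30b and miR-30d kept a mean ratio of 0.106 ± 0.0191 (SD, n = 4) in P4+RU486 and 0.115 ± 0.0439 (SD, n = 4) in P4, with a log2 difference of -0.05 (exact permutation p = 0.829, adjusted p = 0.943). In P4 this ratio was 0.146 and 0.158 in P01 and P04, the P4 libraries with the fewest reads, and 0.0637 and 0.0948 in P02 and P03, those with the most. Without P01, P04 and R04 its log2 difference was 0.45, and the part of depth in it was not tested. The ratio of miR-30c to miR-30a-5p differed by -0.24 on the log2 scale (exact permutation p = 0.457, adjusted p = 0.762). This value was -0.02 without P01, -0.46 without P03, -0.09 without R02 and 0.18 without P01, P04 and R04. For the strands of the miR-30a hairpin, the 3p to 5p ratio was 0.119 ± 0.0303 (SD, n = 4) in P4+RU486 and 0.118 ± 0.0128 (SD, n = 4) in P4 (log2 difference -0.02, exact permutation p = 0.943, adjusted p = 0.943).

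**Figure D4:**
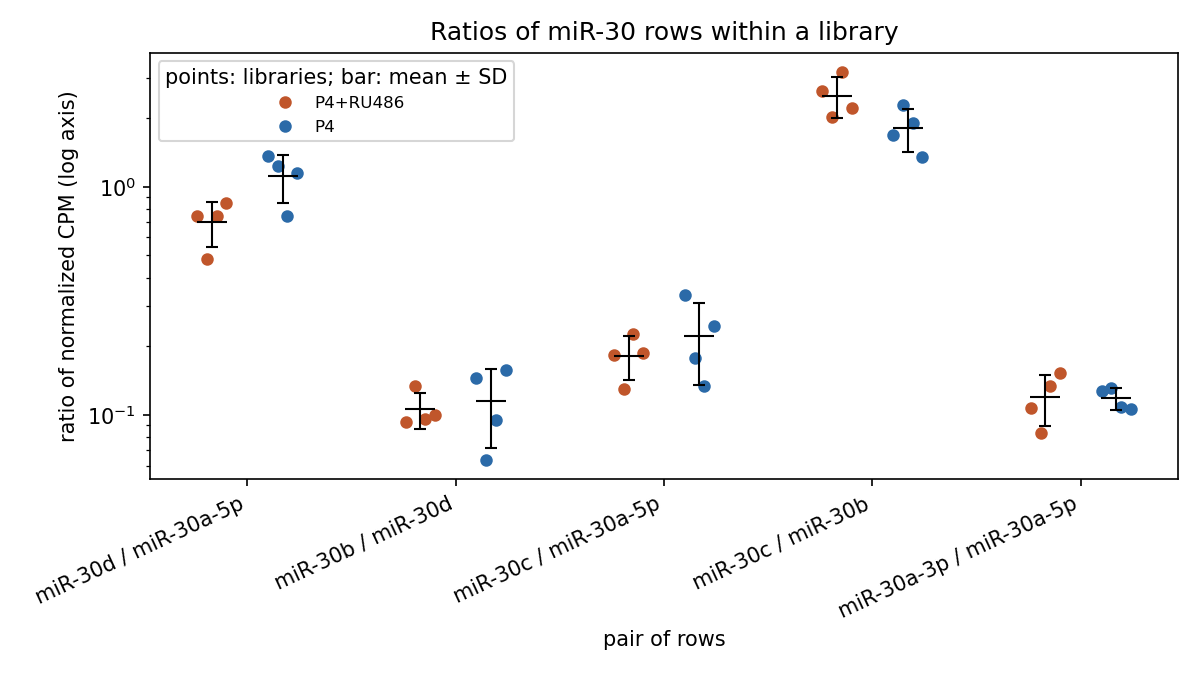
Ratio of the normalized CPM of miR-30 rows within each vesicle library (log axis), P4+RU486 left of P4. Points are libraries and bars are the mean ± SD of 4 libraries. The ratio of miR-30d to miR-30a-5p lies below 1 in all P4+RU486 libraries and above 1 in 3 of 4 P4 libraries.

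The values of 1_144 were ordered by the reads of the library, a relation looked at after the values were seen. This row was at 2223, 2681 and 2307 normalized CPM in P01, P04 and R04, the libraries with the fewest reads, and at 4972, 5371 and 5199 in R02, P02 and P03, those with the most. The remaining libraries, R03 and R01, lay between them. In a limma fit with treatment and the log2 of the reads, 1_144 was 0.39 higher on the log2 scale per doubling of the reads (SE 0.08, limma adjusted p = 0.0339), against a median of 0.08 over the 229 rows. It was the only member to pass, where 1.75% of the rows did so with a slope above 0.

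miR-30a-5p had a slope of 0.26 (SE 0.08, limma adjusted p = 0.0936) and miR-30a-3p of 0.19 (SE 0.08, limma adjusted p = 0.203). The slopes of miR-30d, miR-30c, miR-30b and 9_34106 were 0.07, -0.03, -0.15 and 0.02, with limma adjusted p-values of 0.407 to 0.931. The call of 1_144 was lost without P01, P02, P03, R01, R03 or R04 (limma adjusted p from 0.0562 to 0.161) and with edgeR on whole reads (adjusted p = 0.0506). With the reads in the fit, the treatment differences were 0.06 for 1_144, -0.50 for miR-30d and -0.65 for miR-30b, none past the threshold.

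**Figure D5:**
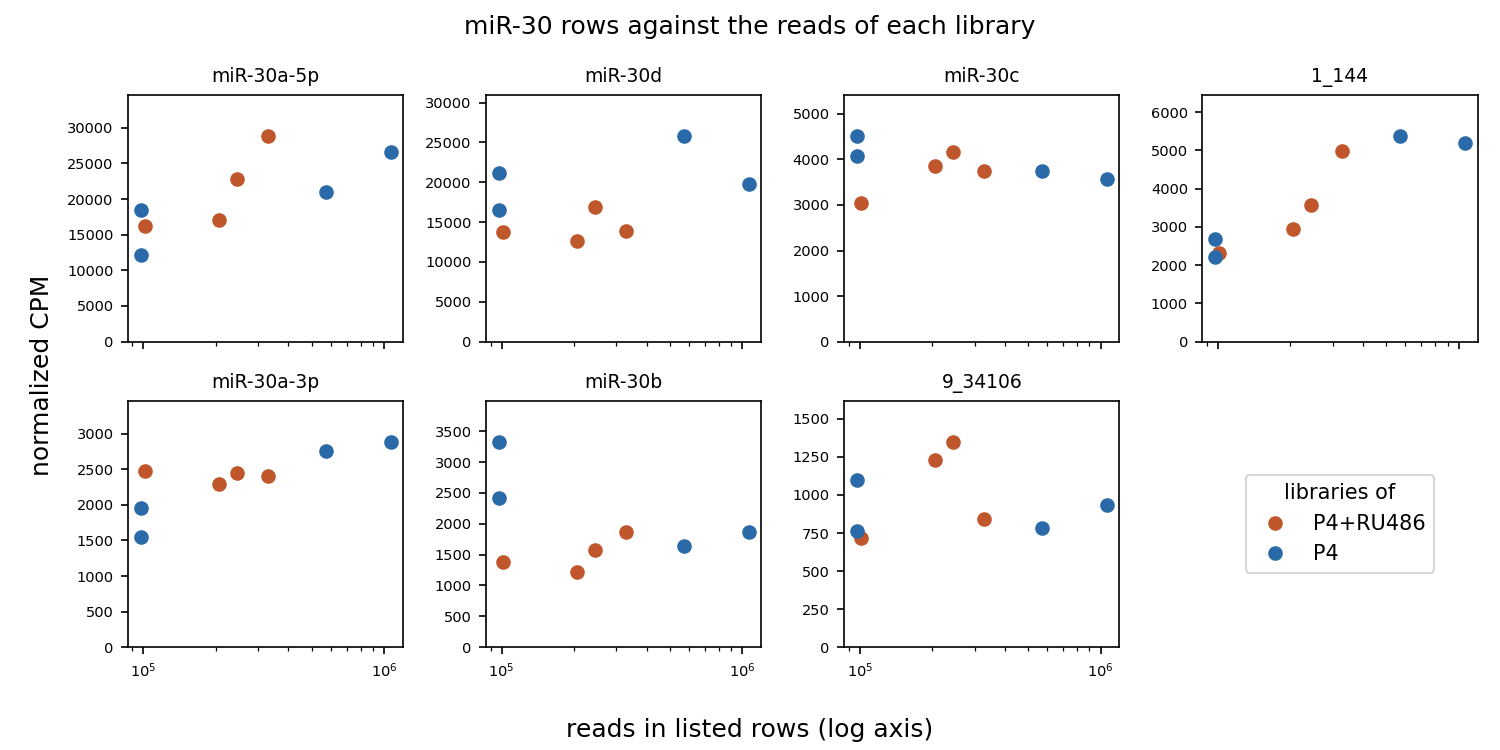
Normalized CPM of each miR-30 row against the reads of the vesicle library in listed rows (log axis), with P4+RU486 and P4 libraries in separate colours. The values of 1_144 are lowest in the 3 libraries with the fewest reads and highest in the 3 with the most, and those of miR-30c show no such order.

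Outside the family, the rows whose values were most like the summed 5p rows over the 8 vesicle libraries were miR-22-3p (Pearson r = 0.895 on the log2 scale), X_36195 with the miR-660 seed (0.850) and 2_17077 with the miR-31 seed (0.849). They are the nearest of 117 rows that averaged 100 or more, and the values share the scaling and the reads of each library. miR-22-3p averaged 7070 ± 865 normalized CPM (SD, n = 4) in P4+RU486 and 7560 ± 1662 (SD, n = 4) in P4.

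The authors' deposited table for vesicles gives adjusted p-values of 0.96 to 1 for the 7 rows, where 1.82% of all its rows are under 0.05. Its folds are signed. For all 7 members the fold in the authors' deposited table was positive where the mean of the deposited values was higher in P4 and negative where it was lower in P4. The folds in the authors' deposited table were 1.51 for miR-30b, 1.45 for miR-30d, 1.12 for 1_144 and 1.08 for miR-30c, and -1.16 for 9_34106, -1.08 for miR-30a-5p and -1.05 for miR-30a-3p.

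In endometrium, the folds of the family were 1.01 to 1.15 in size in the authors' deposited table. The authors' deposited table does not name the numerator there, so the sign is given as coded and says nothing here of which treatment was higher. The folds in the authors' deposited table were 1.15 for 9_34106, 1.12 for miR-30c, 1.08 for miR-30b, 1.06 for miR-30d and 1.01 for 1_144, and -1.15 for miR-30a-3p and -1.06 for miR-30a-5p. Their adjusted p-values in the authors' deposited table were 0.888 to 0.994, where 1.18% of all its rows are under 0.05. miR-30b and miR-30d, with the largest folds of the family in vesicles, had sizes of 1.51 and 1.45 there and 1.08 and 1.06 in endometrium. Of the 7 members, 5 had a smaller size in endometrium. The size was larger in endometrium for miR-30c (1.12 against 1.08) and miR-30a-3p (1.15 against 1.05). These sizes are those of the authors' deposited tables, and the difference between vesicles and tissue was not tested.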

How the data were processed

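Small RNA of vesicles and endometrium was sequenced from Illumina TruSeq libraries, per the labels' protocols. Reads were trimmed with cutadapt 1.11, and the build Oar_v3.1 and edgeR are named, per the submitters' processing notes. The aligner, miRNA predictor and filters were not given in the sources used here. The vesicle values were deposited by the authors as a normalized signal. Dividing by the value of 1 read gave whole reads for 100% of the values of all 8 columns (tolerance 0.1 read). That value was 1.10 to 10.4 normalized CPM and differed from TMM scaling by a relative 2.4e-08 at most. Both tables deposited by the authors also give a signed fold score and adjusted p-value, per the file headers. In the vesicle table the sign of the fold matched that of the P4 mean minus the P4+RU486 mean in 199 of 229 rows, and not in the others. The seed cell of miR-30d in that table holds a spreadsheet error, and the row was matched by name.

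Vesicle columns were assigned to treatments by their initial letter, with 4 columns for the 4 samples of each treatment. They do not name the ewe. The 10 endometrium columns of values per library match no label and were not used, so no test was run there. Ewes of a treatment are separate animals.

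limma 3.58.1 (trend, R 4.3.3) was run on log2(value + 1) over rows averaging 10 or more, with Benjamini-Hochberg adjustment. edgeR 4.0.16 (quasi-likelihood) and DESeq2 1.42.0 on recovered reads were alternatives. Ratios were compared by exact permutation. The scripts were tested on simulated data. Of the 8 ratios planned, 3 were not run, since no row was named miR-30e, miR-30e-3p or miR-30d-3p. All 7 members are described, and 3 further rows were named by correlation with the summed 5p rows. The limma intervals rest on the spread between libraries. Wilson intervals and counting SDs cover counting error only, as reads that carry no molecular identifier are not independent. The members, lists and tests were chosen with earlier results of these data known. No miRNA sequences were used here.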

Additional observations from a re-analysis of the deposited data

Results flagged for a closer look

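In the P4+RU486 libraries the ratio of miR-30b to miR-30d in R02, at 0.134, stood apart from the other 3, at 0.0932 to 0.0999. The gap to the nearest library was 0.836 of the whole range, above Dixon's 95% critical value for 4 libraries. Of 28 groups of values looked at, 1 stood out in this way, and chance gives about 1 in 20.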

How the results depend on the processing

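No miR-30 row passed the threshold for a treatment difference in any of 20 alternatives, and miR-30d, miR-30b (log2 difference -0.73 to -0.20) and 9_34106 (0.04 to 0.39) kept their sign in all of them. With 1 library left out, the log2 difference of miR-30a-5p ranged from -0.078 to 0.30, that of 1_144 from -0.35 to 0.078 and that of miR-30a-3p from -0.057 to 0.24. Without P01, P04 and R04 together (an alternative chosen after seeing the data), it was -0.083 for miR-30a-5p, 0.095 for miR-30c and -0.25 for miR-30a-3p, and with the reads as a covariate (also added) 0.059 for 1_144. The cause was not tested.

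Over all rows, DESeq2 called 2 higher and 3 lower in P4+RU486, edgeR without a filter (added) 3 and 3, the fit with the reads as a covariate 4 and 2, and the fit without P01, P04 and R04 1 and 0, against 0 and 1 in limma. With 1 library left out, 0 to 2 rows were called lower: 2 without P02 and 0 without P04, R01, R03 or R04. Rows with sheep names alone held 3.95% of the reads in P4+RU486 and 4.76% in P4.

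With 1 library left out, the log2 ratio difference ranged from -0.31 to 0.13 for miR-30b to miR-30d and from -0.14 to 0.15 for miR-30a-3p to miR-30a-5p. Without P01, P04 and R04 it was 0.45 for miR-30b to miR-30d and 0.18 for miR-30c to miR-30a-5p. Without 1 library, the slope against reads ranged from -0.076 to 0.0021 for miR-30c and from -0.039 to 0.11 for 9_34106, which was -0.031 with edgeR. That of 1_144 ranged from 0.36 to 0.49, and the number of rows with a called slope from 0 to 9, against 6 in all.

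No paired analysis was possible because the vesicle columns do not name the ewe and the endometrium columns match no label. Depth limits 9_34106 most, with 69 reads in R04.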

Other observations

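The ratio of 9_34106 to miR-30d was looked at after the values were seen and was not tested. It was 0.0797, 0.0610, 0.0972 and 0.0522 in R01 to R04, and 0.0460, 0.0303, 0.0473 and 0.0519 in P01 to P04. Every P4+RU486 library lay above every P4 library, though R04 and P04 nearly met, and R04 held 69 reads of 9_34106. Among single rows, 10.0% of the 229 had treatments that did not overlap, and all 5 tested ratios overlapped. The ratio of 1_144 to miR-30d, at 0.243 ± 0.0823 (SD, n = 4) in P4+RU486 and 0.183 ± 0.0648 (SD, n = 4) in P4, overlapped between the treatments. So did that of 1_144 to miR-30a-5p, at 0.161 ± 0.0150 (SD, n = 4) in P4+RU486 and 0.194 ± 0.0457 (SD, n = 4) in P4. Both were also looked at after the values were seen and were not tested.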
